A study of Mus musculus with 22 samples.

Results

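Aortas of mice without estrogen receptor alpha (ERaKO) were compared with aortas of wild-type (WT) mice, both under estradiol (E2). The comparison takes every array that the labels give as ERaKO with E2 or as WT with E2. These are 3 and 5 arrays, or 8 of the 22 arrays in the series. It asks which transcripts of the vessel differ with the receptor when the hormone is present. Read by 1 probe set of the array per gene, that with the highest mean, 8 genes were higher and 21 were lower in ERaKO. The largest differences were those of Mmd2, Ano4 and the targeted gene Esr1, each at least 17.7-fold lower by that probe set. Second probe sets of Mmd2 and Esr1 were also lower, by less.

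Estrogen receptor alpha is a nuclear receptor. When it binds E2 it attaches to DNA, directly at estrogen response elements or through other transcription factors, and recruits coregulators that raise or lower the transcription of nearby genes. The vessel wall holds both this receptor and estrogen receptor beta, encoded by Esr2, and estrogen is known there for effects on endothelial function and on smooth muscle. A knockout of 1 receptor leaves the other gene in place, so E2 can still act in ERaKO through other receptors.

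All mice were C57BL/6 females, 2.5 to 4.5 months old and ovariectomised, so that an E2 pellet replaced the ovarian hormone and a placebo pellet did not. Each carried a 17beta-estradiol or a placebo pellet for 7 to 8 days. The WT mice were littermates of the knockouts. Besides the ERaKO E2 (n = 3) and WT E2 (n = 5) groups, values are given for ERaKO placebo (n = 3), WT placebo (n = 5), and for mice without estrogen receptor beta (ERbKO) with E2 (n = 3) or placebo (n = 3). The labels do not name the knockout alleles. Each array is 1 aorta, from 5 ug of total RNA without pooling, so n counts mice. Array numbers below are the replicate numbers of the labels.

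Signals are on a log2 scale, 1 value per probe set of the Affymetrix array, so a difference of 1 is a 2-fold difference. A gene is represented by its probe set with the highest mean. A difference is the ERaKO mean minus the WT mean, given with its standard error (SE) from limma. Group means are given with the standard deviation (SD) over the arrays of the group. Differences are called at a limma p under 0.05 after Benjamini-Hochberg adjustment over 20410 tested probe sets. The words higher and lower are used for called genes, and other genes are given as values. With 3 and 5 arrays, precision is limited by their number. The median signal of an array was 3.26 to 3.50, and arrays within the 2 E2 groups correlated with r of 0.936 to 0.977 over 13 pairs, against 0.928 to 0.98 between the groups. RNA comes from the whole vessel, and fewer cells of a type and less RNA per cell cannot be told apart.

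Esr1, which encodes estrogen receptor alpha, checks the genotype labels. Its log2 signal was 5.43, 5.36 and 3.48 in the ERaKO E2 arrays and 8.83, 8.90, 8.68, 9.17 and 8.93 in the WT E2 arrays. No ERaKO array reached the WT range, and array 3 was the lowest of all. The group means were 4.76 ± 1.1 (SD, n = 3) and 8.90 ± 0.18 (SD, n = 5), a difference of -4.14 ± 0.357 or 17.7-fold (adjusted p = 2.0e-06, limma). A second Esr1 probe set was also called, with a smaller difference of -1.68 or 3.21-fold (adjusted p = 0.039). Where the probes lie relative to the deleted part is not given in the sources used here. Esr2 did not pass the filter on low values and was not tested.

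Over the whole array, 12 probe sets (0.0588% of those tested) were higher in ERaKO and 37 (0.181%) were lower, while 1593 had an unadjusted p under 0.05. With the arrays centred on their medians, 14.5% of the calls were higher, against 24.5% here and 19.7% after quantile normalisation. Centring moved the median difference of all tested probe sets from 0.07 to -0.03, so small differences are relative to that shift. By the probe set with the highest mean, 8 genes were higher (0.078% of 10260 tested genes) and 21 were lower (0.205%). These 29 are the called genes below. A further 6 genes were called only by another probe set, so 35 genes were called by any probe set. The 7 called probe sets that carry no single gene symbol are not named. Without the p adjustment, 5.27% of genes had a p under 0.05 with a higher value and 2.79% with a lower one. In all 29 called genes the 3 ERaKO arrays lay outside the range of the 5 WT arrays, as they did in 4.04% of all tested genes. With only the 8 arrays of the comparison in the fit, 12 probe sets were called in place of 49.

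**Figure D1:**
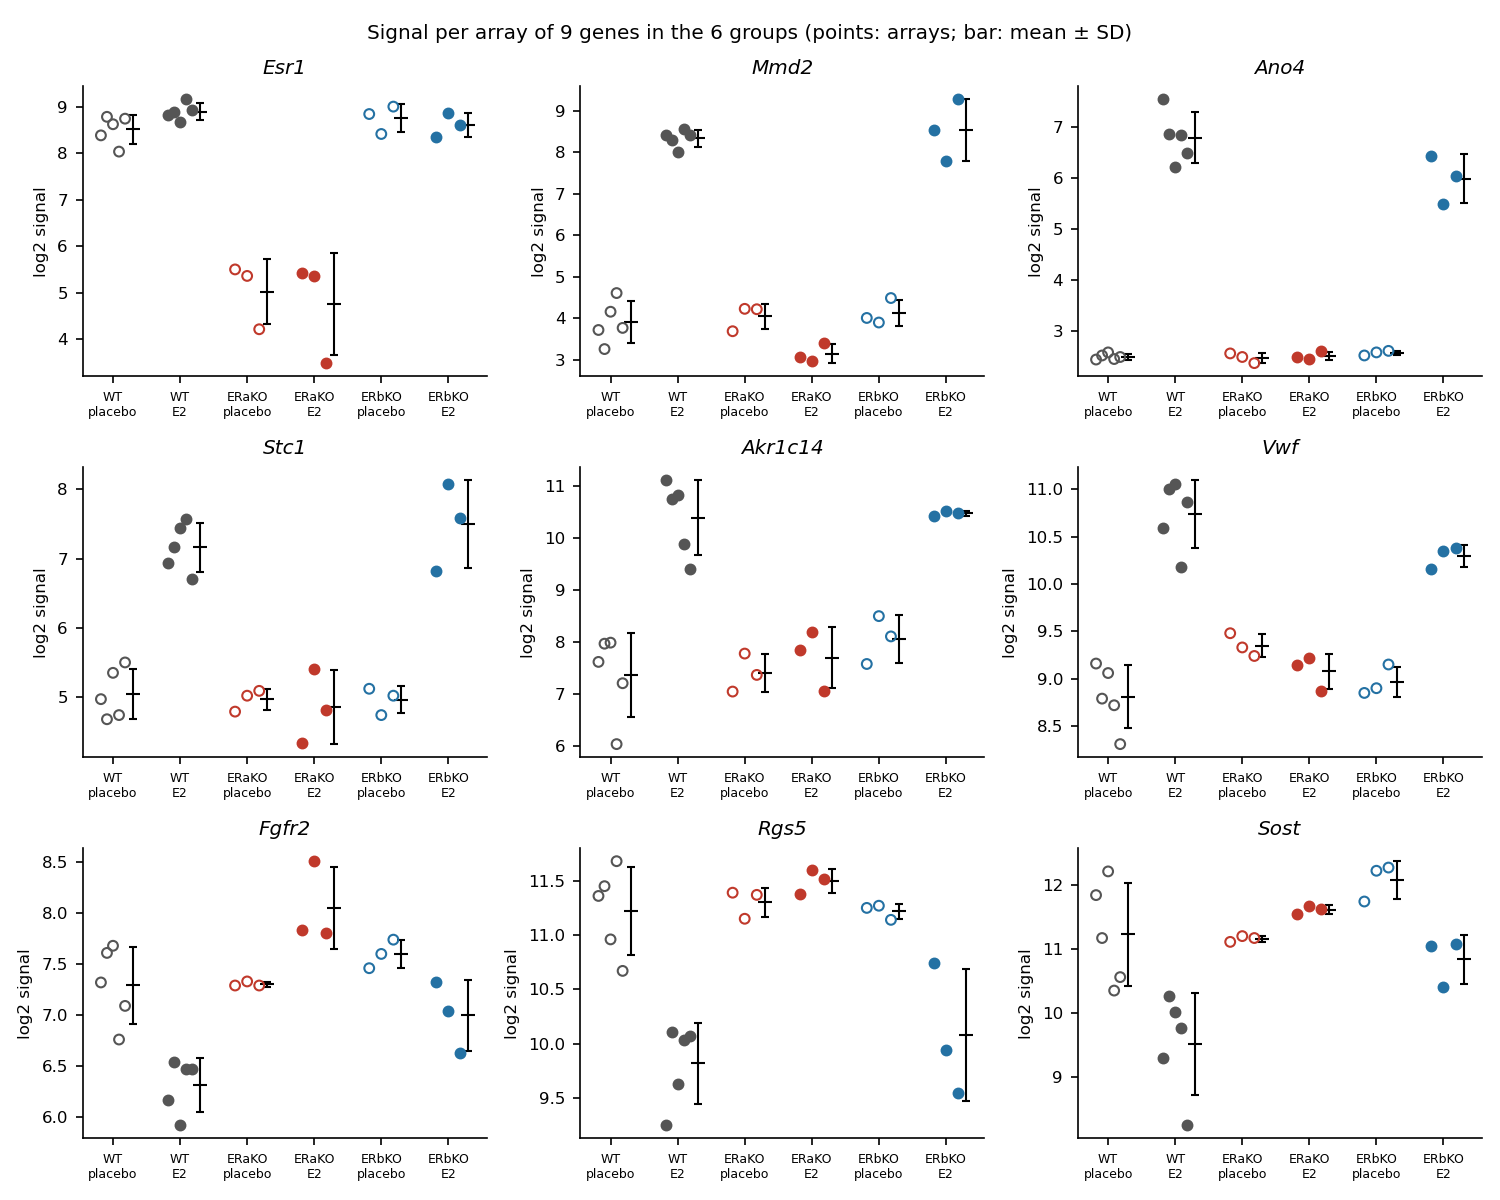
Log2 signal (y axis) of 9 called genes on each of the 22 arrays, grouped by genotype and treatment (x axis). Points are arrays, open with placebo and filled with E2, and bars are group means with SD. Mmd2, Ano4, Stc1, Akr1c14 and Vwf are high with E2 in WT and in ERbKO and not in ERaKO, Fgfr2, Rgs5 and Sost have their lowest group mean in WT with E2, and Esr1 is low in ERaKO with either pellet.

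Mmd2, a member of the progestin and adipoQ receptor family of membrane proteins, had the largest difference. Its log2 signal was 3.06, 2.98 and 3.41 in ERaKO E2 and 8.41, 8.31, 8.00, 8.56 and 8.41 in WT E2. The groups lay more than 4 log2 units apart, and the difference was -5.19 ± 0.294, or 36.4-fold (adjusted p = 1.6e-09, limma). A second Mmd2 probe set was also called, with a smaller difference of -2.90 or 7.48-fold (adjusted p = 1.8e-05). Ano4, of the anoctamin family of membrane proteins, had 2.50, 2.46 and 2.61 in ERaKO E2 and 7.55, 6.86, 6.23, 6.85 and 6.50 in WT E2. It was 19.4-fold lower (-4.28 ± 0.224, adjusted p = 5.6e-10). The mean of Mmd2 lay above 90.1% of all probe sets in WT E2 and above 45.4% in ERaKO E2, and that of Ano4 above 79.7% and 23.6%. At such low signals a fold depends on how the background was corrected.

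Promoter sequences are shown for both genes, for their large differences, and for Hrct1, as the only one of the 23 called genes with a window that holds the AGGTCA arm of an estrogen response element. They are RefSeq windows of GRCm38.p6, 250 bases before to 50 bases after the start of the gene, 5′ to 3′ on the gene's strand, and capitals mark the motifs found. The Mmd2 window, chr5:142608703-142609002 on the minus strand, holds 3 adjoining GC boxes (GGGCGG on either strand), of which the second and the third share 1 base. The Ano4 window, chr10:89257741-89258040 on the minus strand, holds 1 GC box after the start. The Hrct1 window, chr4:43726948-43727247 on the plus strand, holds the single-arm motif AGGTCA and an AP-1 motif (TGANTCA), both also searched on either strand.
Mmd2: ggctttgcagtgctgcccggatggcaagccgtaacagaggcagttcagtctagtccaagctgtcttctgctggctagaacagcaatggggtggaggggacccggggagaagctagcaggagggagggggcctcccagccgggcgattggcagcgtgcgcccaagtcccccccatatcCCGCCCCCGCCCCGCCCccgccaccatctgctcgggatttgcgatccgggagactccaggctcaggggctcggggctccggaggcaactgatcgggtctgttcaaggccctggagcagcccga
Ano4: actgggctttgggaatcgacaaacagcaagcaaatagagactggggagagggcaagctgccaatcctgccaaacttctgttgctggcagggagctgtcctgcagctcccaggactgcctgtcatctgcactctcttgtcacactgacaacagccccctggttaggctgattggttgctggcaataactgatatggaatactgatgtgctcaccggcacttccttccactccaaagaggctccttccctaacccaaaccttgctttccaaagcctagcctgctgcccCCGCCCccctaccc
Hrct1: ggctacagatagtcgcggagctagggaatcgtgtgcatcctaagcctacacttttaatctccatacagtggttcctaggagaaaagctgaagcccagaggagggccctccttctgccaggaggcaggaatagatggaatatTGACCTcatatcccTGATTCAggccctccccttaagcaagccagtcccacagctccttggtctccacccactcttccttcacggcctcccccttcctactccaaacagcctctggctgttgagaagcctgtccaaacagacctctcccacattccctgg

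Windows were at hand for 23 of the 29 called genes, 26 windows in all. A full estrogen response element (GGTCA and TGACC with any 3 bases between) was in 0 of the 26, and in 0.07% of all 32851 windows. The motif AGGTCA was in 3.85% of the 26 windows and 16.3% of all, the GC box in 42.3% and 35.7%, and AP-1 in 7.69% and 7.81%. GC boxes were in windows of Aff3, Ano4, Ghr, Gpx3, Id3, Il4ra, Lrrn1, Mmd2, Rmnd1, Vldlr and Wif1. A match is a run of letters and not a shown binding site, and these windows do not cover distant elements.

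Akr1c14, Akr1cl and Adh1, enzymes of steroid and retinoid metabolism, were lower. Akr1c14, a 3-alpha-hydroxysteroid dehydrogenase of the aldo-keto reductase family, had log2 signals of 7.84, 8.19 and 7.05 in ERaKO E2 and 11.10, 10.74, 10.81, 9.88 and 9.39 in WT E2. All ERaKO arrays lay below all WT arrays, and the gene was 6.46-fold lower (-2.69 ± 0.42, adjusted p = 0.0031, limma). Akr1cl, of the same family, had 3.20, 3.37 and 2.54 in ERaKO E2 and 4.78, 5.93, 4.41, 5.65 and 4.47 in WT E2, and was 4.03-fold lower (-2.01 ± 0.289, adjusted p = 0.0013). Adh1, an alcohol dehydrogenase that also oxidises retinol, had 9.09, 8.16 and 8.54 against 11.47, 9.84, 10.30, 9.77 and 9.76. Its arrays separate the groups by less, and it was 3.10-fold lower (-1.63 ± 0.339, adjusted p = 0.049). Of the 22 removals of 1 array, 17 ended the call of Adh1, and the removal of ERaKO E2 array 3 ended that of Akr1c14 (adjusted p = 0.055). Of the 20 tested genes in the list of steroid and retinoid metabolism, these 3 were lower and 0 higher. The list's median difference was -0.44 with 16 of 20 below 0, against 0.06 over all genes with 4161 of 10260 below 0.

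Among genes of the defence against oxidants, Gpx3 and Gclc were lower. Gpx3, the secreted glutathione peroxidase, had log2 signals of 9.76, 8.33 and 10.60 in ERaKO E2 and 12.01, 12.40, 12.01, 12.29 and 11.90 in WT E2. The ERaKO arrays spread over more than 2 log2 units but did not reach the WT range, and the gene was 5.88-fold lower (-2.56 ± 0.42, adjusted p = 0.006, limma). Without ERaKO E2 array 2, its lowest array, the call of Gpx3 was lost (adjusted p = 0.066). Gclc, which encodes the catalytic part of glutamate-cysteine ligase, the entry step to glutathione, had 7.41, 7.36 and 7.17 against 9.50, 9.02, 9.08, 8.79 and 8.00, and was 2.95-fold lower (-1.56 ± 0.242, adjusted p = 0.0029). A second Gclc probe set had -1.29 (adjusted p = 0.13). Gpx3 and Gclc were the only calls among the 30 tested genes of the antioxidant list, whose median was -0.07. Sod3, the extracellular superoxide dismutase, had a difference of 0.59 ± 0.223 (adjusted p = 0.49) with overlapping groups.

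Stc1, Ghr and Fgfr2 belong to growth factor and hormone signalling. Stc1, the secreted glycoprotein hormone stanniocalcin 1, had log2 signals of 4.34, 5.41 and 4.82 in ERaKO E2 and 6.93, 7.16, 7.44, 7.57 and 6.71 in WT E2, and was 4.95-fold lower (-2.31 ± 0.282, adjusted p = 0.00024, limma). Ghr, the growth hormone receptor, had 9.85, 10.31 and 10.14 against 11.39, 11.49, 11.44, 11.96 and 11.89, and was 2.89-fold lower (-1.53 ± 0.197, adjusted p = 0.00031). Fgfr2, a receptor for fibroblast growth factors, went the other way, with 7.83, 8.51 and 7.81 in ERaKO E2 and 6.17, 6.54, 5.92, 6.47 and 6.47 in WT E2. It was 3.33-fold higher (1.74 ± 0.221, adjusted p = 0.00031), and in none of the 3 genes did the groups overlap for these probe sets. A second probe set of Fgfr2 had 1.02 (adjusted p = 0.52), with overlapping groups. Of the 3 probe sets of Ghr, 2 were called, and the third had -2.08 (adjusted p = 0.057). The list of 36 growth factor genes had a median of -0.01, with 18 members above and 18 below 0. Angptl1, a secreted angiopoietin-like protein, was 3.20-fold lower, with 5.35, 5.20 and 5.21 in ERaKO E2 against 6.58 to 7.44 in WT E2 (-1.68, adjusted p = 0.025).

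Vwf and Lmo2, from the list of endothelial markers, were lower. Vwf, the von Willebrand factor that endothelial cells make for platelet adhesion, had log2 signals of 9.15, 9.22 and 8.87 in ERaKO E2 and 10.59, 11.00, 11.05, 10.18 and 10.86 in WT E2. The groups were about 1 log2 unit apart at their nearest, and Vwf was 3.15-fold lower (-1.66 ± 0.202, adjusted p = 0.00024, limma). Lmo2, an adaptor of transcription complexes in blood and endothelial cells, had 8.40, 8.61 and 7.86 against 9.76, 9.85, 9.64, 9.22 and 9.57, and was 2.49-fold lower (-1.32, adjusted p = 0.013, and 0.14 without ERaKO E2 array 3). Of 29 tested endothelial genes, 24 had a value below 0, with a median of -0.37 with E2 and 0.29 with placebo. The mean log2 signal of the list per array was 6.53 to 7.26 in ERaKO E2 and 7.16 to 7.66 in WT E2, and these ranges overlap. Whether the number of endothelial cells moved with Vwf and Lmo2 was not tested. Nos3, the nitric oxide synthase of endothelium, had 6.94, 6.83 and 6.74 against 7.00, 8.04, 6.92, 7.58 and 6.54, overlapping groups with a difference of -0.38 ± 0.266 (adjusted p = 0.80).

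The other lower genes have varied roles. Tiparp, an ADP-ribosyltransferase known as a target of the dioxin receptor, had log2 signals of 7.05, 6.30 and 6.39 in ERaKO E2 and 8.43, 8.77, 8.45, 8.92 and 8.47 in WT E2, and was 4.06-fold lower (-2.02 ± 0.258, adjusted p = 0.00031, limma). Heph, the ferroxidase hephaestin that serves iron export, had 6.18, 5.70 and 5.34 against 8.00, 7.82, 7.44, 7.43 and 7.38, and was 3.66-fold lower (-1.87 ± 0.235, adjusted p = 0.00031). Il4ra, a subunit of the interleukin 4 receptor, had 4.43, 4.32 and 3.96 against 5.70, 6.38, 5.71, 6.23 and 5.90, and was 3.36-fold lower (-1.75 ± 0.207, adjusted p = 0.0002). In all 3 genes the groups were separate for these probe sets. Of 3 Tiparp probe sets 1 was called, and the others had -1.46 (adjusted p = 0.21) and -1.74 (adjusted p = 0.41, with overlapping groups). A second Il4ra probe set had -0.68 (adjusted p = 0.15). Vldlr, the very low density lipoprotein receptor, had 10.64, 10.57 and 10.74 against 11.75, 12.47, 12.73, 12.41 and 11.79, and 5 of its 6 probe sets were called lower (-1.58 ± 0.214, adjusted p = 0.00067, 2.98-fold). Serpina3n, a serine protease inhibitor, had 5.10, 5.63 and 4.20 against 6.04 to 7.85 (-1.85, adjusted p = 0.033). Completing the 21 lower genes are Hrct1 (-0.86, adjusted p = 0.022), the nuclear protein gene Aff3 (-1.53, adjusted p = 0.024) and the transcription coregulator gene Zmiz1 (-1.13, adjusted p = 0.018). Hrct1 has low signals, with a mean of 3.92 in WT E2 and 3.06 in ERaKO E2. Both lie under the log2 value of 4 used in the filter on low values. Of the 3 probe sets of Zmiz1, 1 was called, and the others had -0.88 (adjusted p = 0.64) and -0.82 (adjusted p = 0.61). Aff3 and Zmiz1 fall outside the rule for named genes and were chosen after their values were seen.

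**Figure D2:**
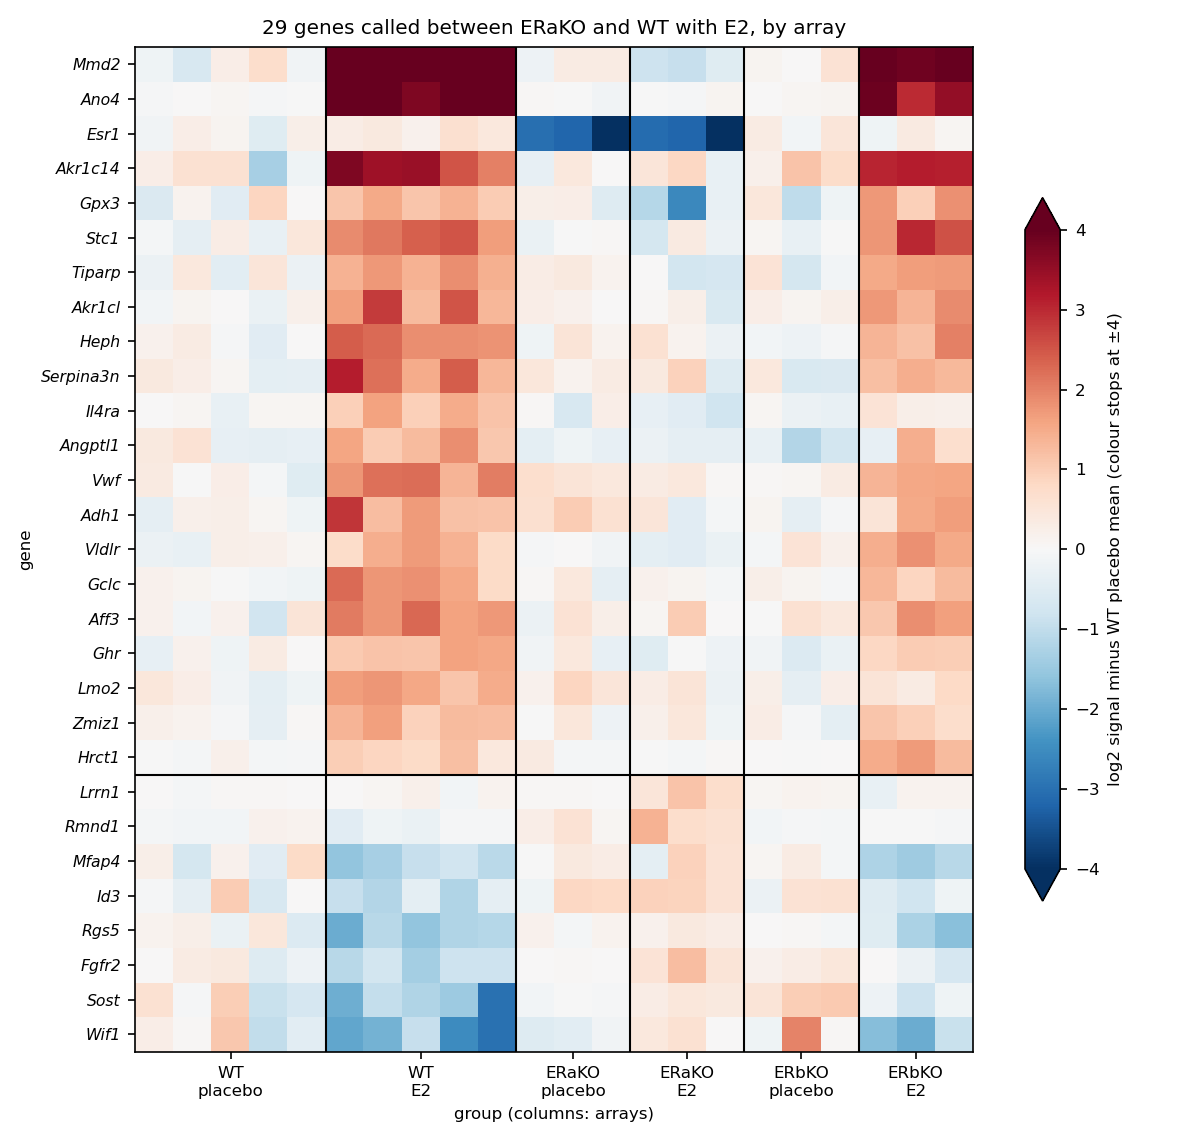
Log2 signal of the 29 called genes (rows) on the 22 arrays (columns, by group), as the difference from the mean of the WT placebo arrays, with colours capped at 4 log2 units either way. The 20 lower genes other than Esr1 lie above the WT placebo mean in every WT E2 column and, but for 1 array of Angptl1, in the ERbKO E2 columns, and Esr1 lies below it in all 6 ERaKO columns.

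Of the 8 higher genes, 2 encode secreted inhibitors of Wnt signalling. Wif1, Wnt inhibitory factor 1, had log2 signals of 8.51, 8.69 and 8.10 in ERaKO E2 and 6.01, 6.19, 7.18, 5.57 and 5.10 in WT E2, and was 5.38-fold higher (2.43 ± 0.495, adjusted p = 0.044, limma). Sost, which encodes sclerostin, had 11.54, 11.67 and 11.63 against 9.29, 10.27, 10.02, 9.77 and 8.25, and was 4.27-fold higher (2.09 ± 0.404, adjusted p = 0.028). Neither pair of groups overlaps, and the WT arrays of both genes spread widely. A second Sost probe set had 2.23 and was not called (adjusted p = 0.36). The 23 tested genes of the Wnt list had a median of 0.15, with 15 above 0 and no other call. Over all tested genes, 6099 of 10260 were above 0.

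Rgs5, an inhibitor of G-protein signals found in arterial smooth muscle and pericytes, had log2 signals of 11.38, 11.60 and 11.52 in ERaKO E2 and 9.25, 10.11, 9.63, 10.03 and 10.07 in WT E2. All ERaKO arrays lay over 1 log2 unit above all WT arrays, and Rgs5 was 3.21-fold higher (1.68 ± 0.255, adjusted p = 0.0025, limma). Its 4 probe sets all had values above 0, and 1 was called. Mfap4, a microfibril-associated protein of the matrix, had 9.75, 11.08 and 10.72 against 8.56, 8.82, 9.23, 9.39 and 9.08, and was 2.83-fold higher (1.50, adjusted p = 0.044). Id3, an inhibitor of DNA binding and a target of bone morphogenetic proteins, had 10.83, 10.80 and 10.49 against 8.98, 8.73, 9.52, 8.72 and 9.54, and was 3.05-fold higher (1.61, adjusted p = 0.047). The calls of Wif1, Mfap4 and Id3 sit close to the threshold, and 17, 17 and 16 of the 22 removals of 1 array ended them. Median centring ended those of Id3 (adjusted p = 0.082), Wif1 (adjusted p = 0.053) and Lrrn1 (adjusted p = 0.23). Lrrn1, a leucine-rich repeat membrane protein, had 4.02, 4.69 and 4.26 against 3.43 to 3.74 (0.71, adjusted p = 0.044), and 19 removals ended its call. Rmnd1, needed for translation in mitochondria, had 5.10, 4.41 and 4.33 against 3.27 to 3.68 (1.09, adjusted p = 0.0026). Lrrn1 and Rmnd1 both have low signals in all groups.

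The same genotypes were compared with placebo, on 8 other arrays. Of the 29 called genes, Esr1 was the only one called there (-3.49 ± 0.357, adjusted p = 0.00014, limma), and it was the only probe set called of all (0.0049% of those tested), with 739 at an unadjusted p under 0.05. Its log2 signal was 5.50, 5.36 and 4.21 in ERaKO placebo, against 8.39, 8.79, 8.63, 8.04 and 8.75 in WT placebo. The other 28 genes had placebo differences from -0.35 (Wif1) to 0.75 (Adh1), all with an adjusted p of at least 0.96. The median size of the difference over the 28 genes was 1.68 with E2 and 0.12 with placebo. Because these genes were picked for their difference with E2, that contrast of sizes is a description. Of the 28, 3, Vwf with 0.54, Adh1 and Lmo2 with 0.50, had an unadjusted p under 0.05 with placebo, and all had a value above 0 there while they were lower with E2. Over all 10260 genes, 8.06% had an unadjusted p under 0.05 with E2 and 3.79% with placebo. That order depends on which placebo arrays enter and how they are weighted. In probe sets, the counts of 1593 with E2 and 739 with placebo became 1660 and 2092 without ERaKO placebo array 1, 1925 and 1778 without WT placebo array 4, and 1458 and 3078 with array weights.

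**Figure D3:**
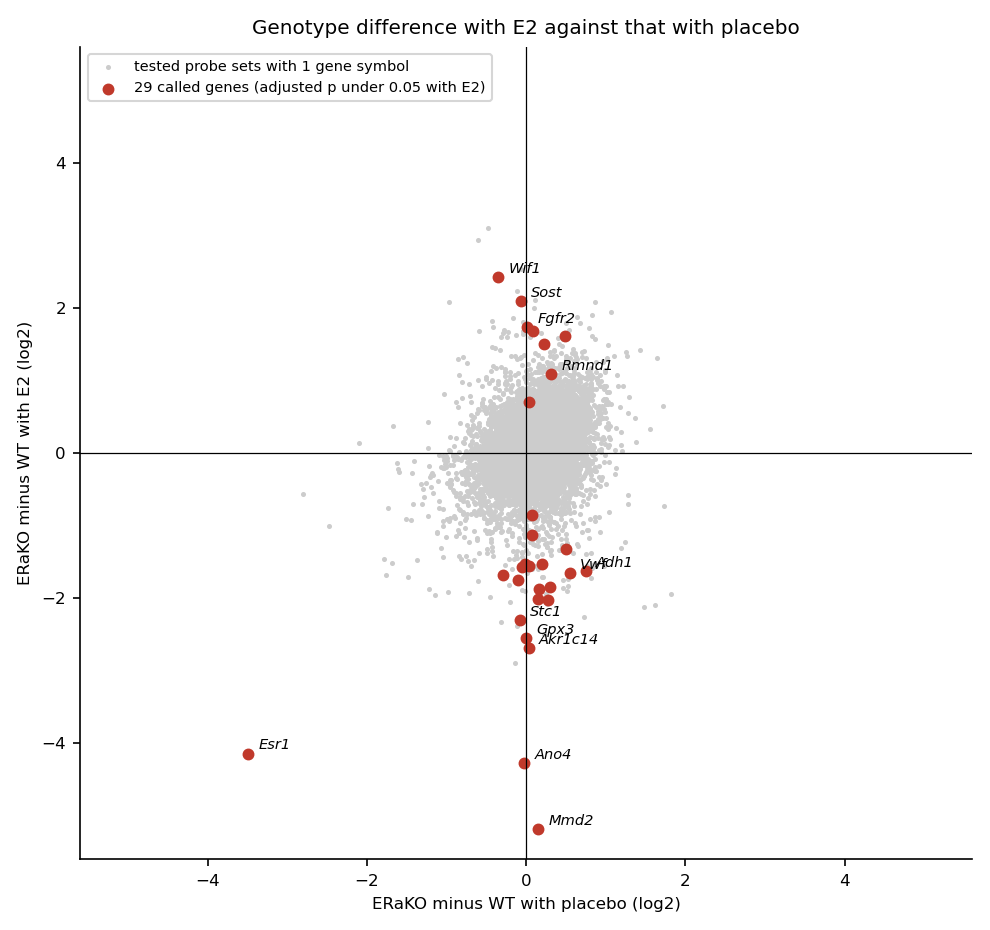
Difference between ERaKO and WT (log2) with placebo on the x axis and with E2 on the y axis, for each tested probe set with 1 gene symbol (grey) and the 29 called genes (red). Esr1 is low on both axes, and the other called genes spread along the E2 axis with placebo differences between -0.35 and 0.75.

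Whether the genotype difference itself changed with treatment was tested as an interaction, the E2 response of ERaKO minus that of WT. It called 14 probe sets (0.0686% of those tested, 13 lower and 1 higher; 635 at an unadjusted p under 0.05), for 10 genes (0.0975%). All 10 are among the 29. The largest terms were -5.33 for Mmd2 (adjusted p = 4.7e-07) and -4.25 for Ano4 (adjusted p = 3.1e-07). Tiparp had -2.30, Stc1 -2.22, Vwf -2.20, Heph -2.03, Lmo2 -1.82, Il4ra -1.65 and Ghr -1.51. Fgfr2, with 1.72, was the single higher gene. Within a genotype the replicate numbers paired the arrays with E2 and with placebo, and with the pairs as a block 29 probe sets were called, 3 higher and 26 lower. With that block, 8 of the 10 genes kept their call, Stc1 (adjusted p = 0.095) and Fgfr2 (adjusted p = 0.11) not. Among the other 19 called genes, the block called Akr1c14 (adjusted p = 0.019), Aff3 (0.028), Vldlr (0.039), Zmiz1 (0.039) and Gclc (0.049), all lower. For the remaining 14, Esr1 included, neither fit called the interaction, so a change with treatment is not shown.

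The levels of the called genes in ERaKO E2 were set beside those of the 8 placebo arrays of ERaKO and WT. Because these genes were picked for their difference between ERaKO E2 and WT E2, the counts are a description. The same counts over all tested genes were not made. Of the 20 lower genes other than Esr1, the WT E2 mean lay above the whole range of the placebo arrays for all 20. The ERaKO E2 mean lay within that range for 16 and below it for 4, Mmd2, Gpx3, Tiparp and Vldlr. Gpx3 had a mean of 9.56 ± 1.1 (SD, n = 3) in ERaKO E2, below its lowest placebo array at 10.33. The WT change with E2, which shares arrays with the genotype difference, was 0.85 to 4.44 in the 20 genes. Of the 8 higher genes, the WT E2 mean lay below the placebo range for 7 and within it for Lrrn1. The ERaKO E2 mean of Lrrn1, Rmnd1 and Fgfr2 lay above the range, and that of the other 5 within it.

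ERaKO E2 arrays were also compared with the 3 ERbKO E2 arrays, which asks whether the genes differ between the 2 knockouts. It called 47 probe sets (0.23% of those tested), 17 higher and 30 lower, and 26 genes (0.253%). After median centring 23.6% of the probe sets were higher, against 36.2% here. Of the 29 genes, 16 were also called, and all 29 had the same sign, but both comparisons use the same ERaKO E2 arrays. The 16 are Esr1, 12 other lower genes (Mmd2, Ano4, Akr1c14, Gpx3, Stc1, Tiparp, Akr1cl, Heph, Vwf, Vldlr, Ghr and Hrct1) and 3 higher ones (Lrrn1, Rmnd1 and Rgs5). Mmd2, for example, had 8.55, 7.80 and 9.28 in ERbKO E2, all more than 4 log2 units above ERaKO E2, with a difference of -5.40 (adjusted p = 9.0e-09, limma). Lmo2 had 8.62, 8.44 and 8.91 in ERbKO E2, near the ERaKO values, with a difference of -0.37 (adjusted p = 0.62). Sost had 11.04, 10.40 and 11.07, with a difference of 0.78 (adjusted p = 0.53). Between ERbKO E2 and WT E2, 1 probe set was called (0.0049% of those tested; 1172 at an unadjusted p under 0.05).

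The response of ERbKO, E2 (n = 3) against placebo (n = 3), has group means from other arrays than the 8, although the filter and the spread come from all 22. There 20 probe sets were called (0.098% of those tested), and 12 genes, 11 of which rose while Casq1, a calcium-binding protein of striated muscle, fell. With only the 6 ERbKO arrays in the fit, 2 probe sets were called (1015 at an unadjusted p under 0.05), and none of the 12 genes was (adjusted p of 0.051 to 0.44, unadjusted p of 7.5e-06 to 0.0027). Of the 11 that rose, 9 were lower in ERaKO E2 than in WT E2, beside the 0.205% of all genes that were lower. They were Mmd2, Ano4, Stc1, Tiparp, Heph, Hrct1, Vldlr, Vwf and Ghr. The remaining genes are Galnt15, a glycosyltransferase with -1.28 (adjusted p = 0.052), and Bnc2, a zinc finger protein with -1.36 (adjusted p = 0.15). Over the 11 genes that rose, the median was -1.66 for ERaKO minus WT with E2, 0.08 with placebo, and 1.71 for the ERbKO rise. Galnt15 was 7.89, 7.38 and 7.67 in ERaKO E2 against 8.56 to 9.16 in WT E2, without overlap. A different probe set of the gene was called lower (-1.84, adjusted p = 0.049), with overlapping groups. Casq1, with 8.04, 8.90 and 7.73 against 6.66 to 7.46, had a value of 1.16 (adjusted p = 0.20). With the pairs as a block, 35 probe sets were called in ERbKO, 31 rising and 4 falling, and 11 of the 12 genes kept their call, Bnc2 not (adjusted p = 0.06).

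**Figure D4:**
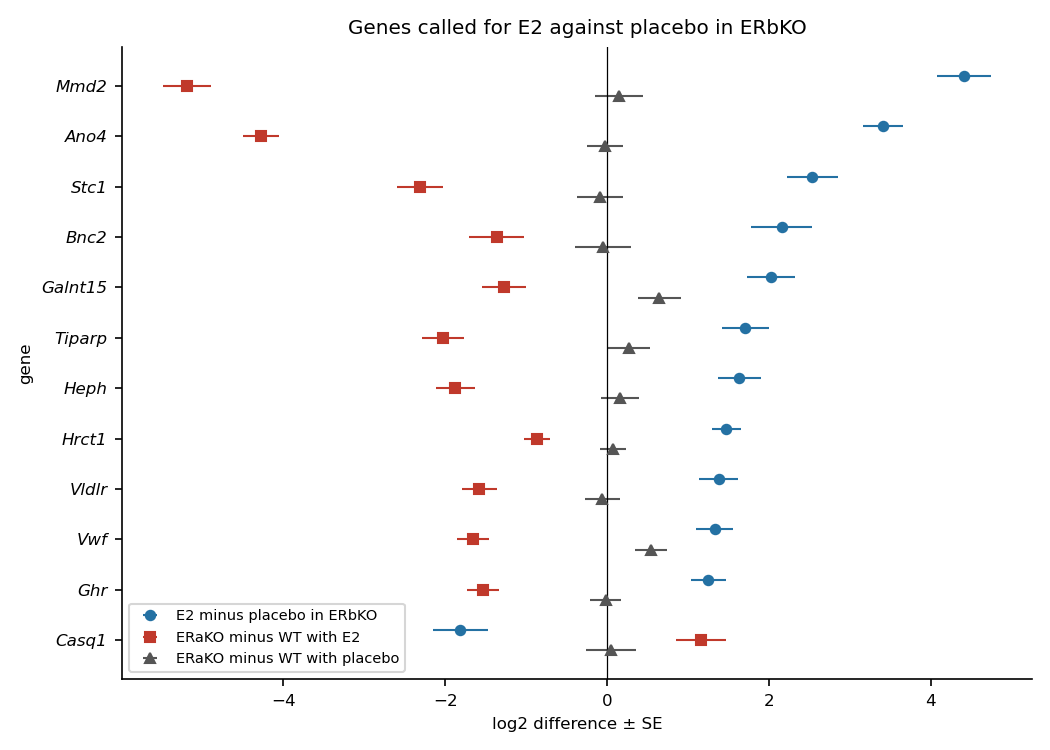
For the 12 genes called for E2 against placebo in ERbKO, that response and the difference between ERaKO and WT with E2 and with placebo, in log2 units with SE of the limma fit. The 11 genes that rose in ERbKO all have a value below 0 for ERaKO minus WT with E2, and with placebo their values scatter around 0.

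Genes near Esr1, the targeted locus, were read as a group. Rmnd1, on chromosome 10, starts 209 kb before the start of Esr1 in GRCm38.p6 and was the only call, other than Esr1, among 61 other tested genes within 20 Mb. Of these 61, 10 (16.4%) had an unadjusted p under 0.05 with E2, against 8.06% of all genes. With placebo 7 of the 61 (11.5%) did, against 3.79% of all genes. Among the 10, chosen after their values were seen, were Adat2 with 1.31 and Mthfd1l with 1.15, and the 2 with a value below 0 were Perp (-1.05) and Phactr2 (-0.90). Adat2, a subunit of a tRNA-editing deaminase, had 1.64 with placebo (adjusted p = 0.60), and Mthfd1l, a mitochondrial folate enzyme, 0.98 (adjusted p = 0.96). The part of the chromosome segment around Esr1 in these values was not tested.

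Lists of genes were read by counts and medians, beside a median of 0.06 with E2 and 0.12 with placebo over all tested genes. With E2, 6099 of all 10260 tested genes were above 0. Of 28 tested TGF-beta and BMP genes, Id3 was the single call by the probe set used. In this list 24 were above 0 and the median was 0.42, against 0.12 with placebo. Another probe set of Id2, also in the list, was called higher (1.91, adjusted p = 0.011, limma). Of 47 extracellular matrix genes, Mfap4 was the single call, 34 were above 0, and the median was 0.39 with E2 and 0.03 with placebo. Smooth muscle genes, the defining markers of the aortic media, had a median of 0.29 with E2 and 0.21 with placebo, and 0 of 27 were called. Their mean log2 signal was 10.63 to 11.12 in ERaKO E2 and 10.46 to 10.70 in WT E2, high in every array. Myh11, smooth muscle myosin heavy chain, had 13.50, 13.77 and 13.77 against 13.32 to 13.55 (0.29, adjusted p = 0.83). Of 12 tested estrogen-responsive genes, chosen from other tissues, Esr1 alone was called, and the median was 0.02. Pgr, the progesterone receptor, had 8.32, 8.29 and 8.89 in ERaKO E2 and 8.95 to 9.88 in WT E2, groups that did not overlap, with a difference of -0.76 ± 0.368 (adjusted p = 0.64). The sign of the 18 medians at least 0.2 from 0 was the same after quantile normalisation and median centring. Among the 18 is the median of the genes that rose with E2 in ERbKO, which is not one of the 35 lists.

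**Figure D5:**
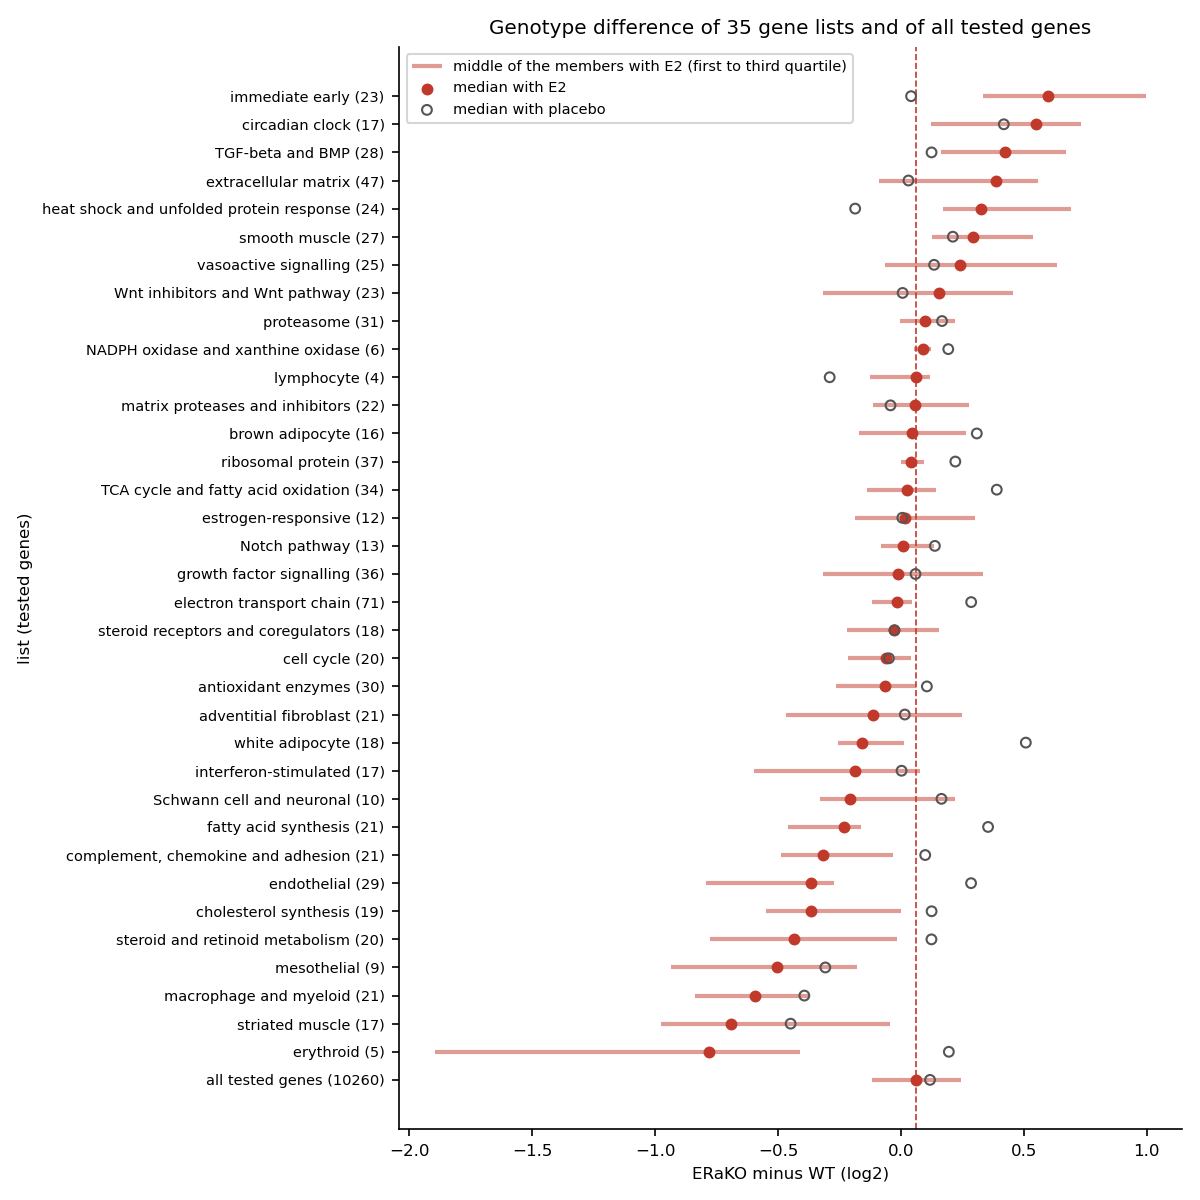
Median difference between ERaKO and WT (log2, x axis) for each of the 35 gene lists (y axis), with E2 (bars from the first to the third quartile of the members) and with placebo. The dashed line is the median of all tested genes with E2. The endothelial median is -0.37 with E2 and 0.29 with placebo, that of steroid and retinoid metabolism -0.44 and 0.12, and that of all tested genes 0.06 and 0.12.

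Markers of other cell types that an aorta can carry were read in the same way. Adipocyte transcripts had signal in every array. Ucp1, the uncoupling protein of brown fat, had 12.88, 11.35 and 12.99 in ERaKO E2 against 11.55 to 13.11 in WT E2, with a difference of -0.08 ± 0.448 (adjusted p = 0.99, limma). The 16 tested brown and 18 white adipocyte genes had medians of 0.05 and -0.16, and their array means ran from 8.36 to 9.44 and 9.12 to 10.36 in ERaKO E2, against 8.30 to 9.33 and 9.15 to 10.48 in WT E2. These ranges overlap. Macrophage and myeloid genes had a median of -0.59 with E2 and -0.39 with placebo, with 20 of 21 below 0 and 0 called. Striated muscle genes had -0.69 and -0.45, and of 17 tested 0 were called. Their array means were 8.40, 6.95 and 6.35 in ERaKO E2 and 9.11, 8.15, 6.63, 7.19 and 7.40 in WT E2, highest in array 1 of both groups, with overlapping ranges. Acta1, skeletal actin, had 4.05 to 4.97 in ERaKO E2 and 4.02 to 5.25 in WT E2. The 5 tested erythroid genes had a median of -0.78 with E2 and 0.19 with placebo, all 5 below 0. With an adipocyte score of the arrays as a covariate, all 29 genes were called and 74 probe sets in all. With a striated muscle score, 24 of the 29 were called, and Adh1, Lrrn1, Mfap4, Id3 and Wif1 were not (adjusted p of 0.064 to 0.071). Their differences hardly moved, to -1.63, 0.69, 1.46, 1.57 and 2.42. The part of macrophages and blood cells in the calls was not tested.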

How the data were processed

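Total RNA of 22 aortas was hybridised to Affymetrix mouse arrays. The authors deposited log2 values per probe set, made with GCRMA per the submitters' processing notes, which corrects background by probe sequence and normalises arrays together. They also gave a table of limma log2 differences and p-values. A fit to all probe sets matched its log2 differences within 4.75e-08 and its p-values within 4.93e-08, so the p-values of the authors' deposited table are unadjusted.

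Of 45101 probe sets, 64 controls were left out, and those over a log2 value of 4 on at least 3 of the 22 arrays were tested (20410). Names come from the platform annotation: 34958 probe sets carry 1 symbol, 932 several and 9211 none. A group-means model of 6 groups on all 22 arrays was fitted with limma 3.58.1 in R 4.3.3 (lmFit, eBayes, two-sided tests), with Benjamini-Hochberg adjustment per contrast. The fit was tested on simulated data. Figures used matplotlib 3.10.9 in Python 3.11.15.

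Named genes are the 15 largest differences each way among called genes whose groups do not overlap, the 10 largest called interaction terms, genes called with E2 and with placebo, the called members of each of 35 gene lists (or up to 4 with the smallest p, of which some are given), and fixed genes such as Esr1 and Pgr. Greb1, another of these, did not pass the filter. The members and lists were chosen with earlier results of these data known.

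Deviations of arrays from their group means correlated over 0.1 in all 11 pairs of equal replicate number within a genotype (0.246 to 0.661), so a block for these pairs was added for the interaction and the ERbKO response, after seeing the data, as was a fit of the ERbKO response on its own 6 arrays. The labels do not say what the number marks. Alternatives covered filters, scaling between arrays, thresholds, arrays in the fit, array weights, marker scores as covariates, replicate blocks and the removal of each array.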

Additional observations from a re-analysis of the deposited data

Results flagged for a closer look

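The genotype difference with E2 and with placebo differed by limma's interaction test (adjusted p under 0.05) for 10 genes. The interaction was -5.33 for Mmd2, -4.25 for Ano4, -2.30 for Tiparp, -2.22 for Stc1, -2.20 for Vwf, -2.03 for Heph, -1.82 for Lmo2, -1.65 for Il4ra and -1.51 for Ghr, and 1.72 for Fgfr2, on the log2 scale. In groups of 4 or more arrays, 1 array stood apart from the others in 8 of 116 groups examined, all in WT placebo, and chance gives about 1 in 20. The lowest log2 signal stood apart for Il4ra (4.47), Myh11 (12.19), Casq1 (6.68) and Bnc2 (3.35). The highest stood apart for Hrct1 (3.28), Nos3 (7.63), Acta1 (10.09) and Nr4a3 (6.31). These WT placebo arrays are in neither group mean of the comparison with E2. They enter it through the spread, the filter on low values, the probe set chosen for a gene and the joint normalisation.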

How the results depend on the processing

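For ERaKO against WT with E2, 49 probe sets were called. With only the arrays of the groups compared the count was 12 (1 higher, 11 lower), at an adjusted p under 0.01 it was 26, with an adipocyte score as covariate 74, and with the removal of 1 array 28 to 91. It was 91 without ERaKO E2 array 1, 28 without array 2 and 30 without array 3, 31 without WT E2 array 1 and 76 without WT placebo array 4. With placebo, where 1 was called, the counts were 0 with only those groups (505 at an unadjusted p under 0.05), 17 with array weights, and 1 to 17 with 1 array removed. The interaction count of 14 became 9 with no filter on low values, 7 at an adjusted p under 0.01, 25 with the adipocyte covariate, 29 with the replicate block within genotype, and 7 to 21 with 1 array removed. For ERaKO against ERbKO the count of 47 became 11 with only those groups, 80 with array weights, 18 at an adjusted p under 0.01, and 20 to 100 with 1 array removed. The ERbKO response count of 20 became 35 with the replicate block within genotype and 2 with only those groups.

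Equal replicate numbers did not pair ERaKO with WT arrays (r = 0.395, -0.165 and 0.085 with E2, 0.269, -0.11 and 0.065 with placebo) or with ERbKO arrays (0.177, 0.164 and 0.035). With the replicate number as a block across genotypes, the counts were 155 with E2 (57 higher, 98 lower), 2 with placebo, 26 for the interaction and 113 against ERbKO.

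Of the 29 called genes, Mmd2, Ano4, Esr1, Stc1, Tiparp, Heph and Il4ra kept their call in every alternative run, 15 kept it in all 22 removals of 1 array, and none changed direction. The fit of only those groups, with fewer arrays, ended the other 22 calls. Removals ended the calls of Lrrn1 (19), Adh1, Mfap4 and Wif1 (17 each), Id3 (16), Serpina3n (7), Hrct1 (5), Angptl1, Aff3 and Sost (4 each) and Zmiz1 (3). Removals of ERaKO E2 arrays 1, 2 or 3 or WT E2 array 1 are among them for Sost and Hrct1. Uncalled values near 0 changed sign. Ucp1 became 0.0786 with array weights, 0.175 with the replicate block and -0.377 to 0.4442 in removals. Adipoq became 0.193 with the replicate block and -0.3369 to 0.2377 in removals, and Acta1 0.449 with a striated muscle score and -0.2867 to 0.1744 in removals. Of 1152 list medians under alternatives, with those of the genes that rose with E2 in ERbKO included, 41 moved by more than the spread of the arrays. The causes were not tested. GCRMA values of Mmd2 and Ano4 in ERaKO lie near the low end of the scale, which limits their folds.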

Other observations

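Lists not described above held genes with differences that were not called with E2. Dll1, a Notch ligand of endothelium, had log2 signals of 6.43, 5.46 and 5.22 in ERaKO E2 and 6.77 to 8.32 in WT E2, without overlap (-1.72, adjusted p = 0.054, limma), while the receptor gene Notch3 had 0.69 (adjusted p = 0.34) and the Notch list a median of 0.01. Of 17 interferon-stimulated genes 11 were below 0 and 0 were called. Rsad2, an antiviral protein, had 8.75, 9.73 and 8.20 against 10.27 to 11.25 (-1.70, adjusted p = 0.19). Lbp, which binds lipopolysaccharide, had 5.12, 5.20 and 4.63 against 5.38 to 7.47 (-1.56, adjusted p = 0.19). The erythroid genes Trim10 (-2.05, adjusted p = 0.066) and Slc4a1 (-1.90, adjusted p = 0.48) also had separate groups, and blood left in the vessel was not measured apart.

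Of 24 heat shock genes, 19 were above 0, beside 6099 of 10260 over all tested genes. The median of the 24 was 0.32 with E2 and -0.19 with placebo, and 0 were called by the probe set used. Hspb1, a small heat shock protein, had 11.48, 11.84 and 11.47 in ERaKO E2 and 9.94 to 10.93 in WT E2 (1.08, adjusted p = 0.15). For Dnajb1, a cofactor of Hsp70, another probe set was called higher (1.30, adjusted p = 0.049), as it was for Id2 (1.91, adjusted p = 0.011) and Wwp2 (1.50, adjusted p = 0.021), and lower for Hspa4 (-0.81, adjusted p = 0.011) and Ssr3 (-0.71, adjusted p = 0.049). Id2, Wwp2, Hspa4 and Ssr3 were chosen after their values were seen. Of 23 immediate early genes, 21 were above 0, with a median of 0.60. The mean log2 signal of that list was 10.18 in ERaKO E2 array 1 and 7.92 in the lowest ERaKO E2 array, against 7.42 to 8.81 in WT E2, so 1 array stands above the others. Circadian clock genes had a median of 0.55 with E2 and 0.42 with placebo, with 13 of 17 above 0 with E2.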
